A study of Mus musculus with 10 samples.

Results

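The keratin genes of mouse embryonic stem (ES) cells were described across 6 lines measured on 1-colour Agilent expression arrays. Members were the genes whose name on the array is Krt followed by digits only. This gave 47 genes of 36161 named features. They were read by 60 probes, and 1 probe per gene was kept, that with the highest mean signal over the 10 arrays, while 35 of the 47 had a single probe. Keratins named with a letter, such as Krt6a, were not members.

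Keratins are the intermediate filament proteins of epithelial cells. A filament needs an acidic type I keratin, whose genes lie in a cluster on mouse chromosome 11, and a basic type II keratin, whose genes lie in a cluster on chromosome 15. The type II gene Krt8 and its partner Krt18, a type I gene that lies beside it in the chromosome 15 cluster, form the first keratin filaments of the embryo, in the outer cells that become trophectoderm. Simple, single-layered epithelia keep Krt8 and Krt18 and add Krt7, Krt19 and Krt20, whereas the skin uses Krt5 with Krt14 in its basal layer and other pairs in upper layers and in hair.

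The line labelled PRDM14 (line JP-23, 2 arrays) was wild type and carried a stably expressed Prdm14 gene, which encodes a transcriptional regulator of pluripotency and germ cells. The line labelled PRDM14_DNMT3B (line JP-23+3b-3, 2 arrays) stably expressed Prdm14 together with Dnmt3b1, an isoform of a de novo DNA methyltransferase. Dnmt3b_KO (line 8bb, 2 arrays) was Dnmt3b-/-. Dnmt1_KO (line 36, 1 array) was Dnmt1-/-, so it lacked the maintenance methyltransferase. TKO (line 19-1, 1 array) was Dnmt1-/-Dnmt3a-/-Dnmt3b-/-. J1 (2 arrays) was the wild-type line. All lines were grown without feeder cells in serum and LIF. Each group was 1 line, and no label says that replicates were separate cultures. The p-values therefore reflect array-to-array spread alone, which may be technical, and do not separate a genotype from its line.

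Between 50.0% and 56.0% of the spots were well above background on each array, the 75th percentile of signal lay between 243 and 337 intensity units, and saturation was found on 0 spots. Replicate arrays correlated at 0.995 to 0.998 over 24281 probes. The Dnmt1 probe read -2.68 in Dnmt1_KO and -3.15 in TKO, against 1.62 and 1.30 in J1. Dnmt3a read -6.38 in TKO, against -0.18 and -0.34 in J1, and Dnmt3b read 1.62 and 1.69 in Dnmt3b_KO and 1.99 in TKO, against 7.60 and 7.57 in J1. The Prdm14 probe went against the label of both expressing lines, with -4.32 and -4.02 in PRDM14 and -6.35 and -6.42 in PRDM14_DNMT3B, against -0.08 and 0.09 in J1. The Dnmt3b probe likewise read 4.09 and 4.17 in PRDM14_DNMT3B, against 5.0 and 5.05 in PRDM14 and 7.60 and 7.57 in J1. The sources used here do not say whether either transgene holds the stretch its probe reads, so these arrays are named by their labels. Hprt, noticed after its values were seen, read 5.81 to 6.56 on the 8 arrays of the other lines, against -2.35 and -2.26 in J1. The J1 arrays thus stood apart from every other line in this gene. Whether they differ from the other lines in further ways that bear on the comparisons with J1 was not tested. All 12 pluripotency markers examined were well above background on all 10 arrays.

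All levels are log2 processed signals minus the 75th percentile of their own array, so 0 is the 75th percentile and a step of 1 is a doubling. Levels of different genes come from different probes and are not comparable. A gene was tested when at least 1 group had its probe well above background on each of its arrays, which left 23626 features and 28 of the 47 keratins. One fit with limma over all 10 arrays, with Benjamini-Hochberg adjustment over the 23626 features and a threshold of 0.05, gives every adjusted p below. Dnmt1_KO and TKO have 1 array each, and their spread is assumed equal to that of the other groups.

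The classes of keratin differed in how many members gave a signal. All 7 keratins of simple epithelium (Krt7, Krt8, Krt18, Krt19, Krt20, Krt23 and Krt80) and all 5 basal or wound-induced keratins (Krt5, Krt14, Krt15, Krt16 and Krt17) were tested. Of the keratins of differentiated stratified layers 7 of 12 were tested, of those of the hair root sheath 3 of 8, and of those of the hair shaft and tongue 4 of 13. Krt42 and Krt222 made up the other 2. In all, 19 keratins were well above background on all 10 arrays, and 16 on none (Krt1, Krt4, Krt24, Krt25, Krt32, Krt34, Krt35, Krt36, Krt39, Krt40, Krt75, Krt76, Krt78, Krt82, Krt83 and Krt84). Krt26, Krt27 and Krt74 passed on 1 array each and were not tested. Between 23 and 27 keratins were above background per array, the highest count being in Dnmt1_KO. Krt12, Krt15, Krt23, Krt71 and Krt77 entered the test only through the groups in which they were high, so counts over the 28 describe those tested and not the family. Their p-values for those groups rest on values that also selected them.

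**Figure D1:**
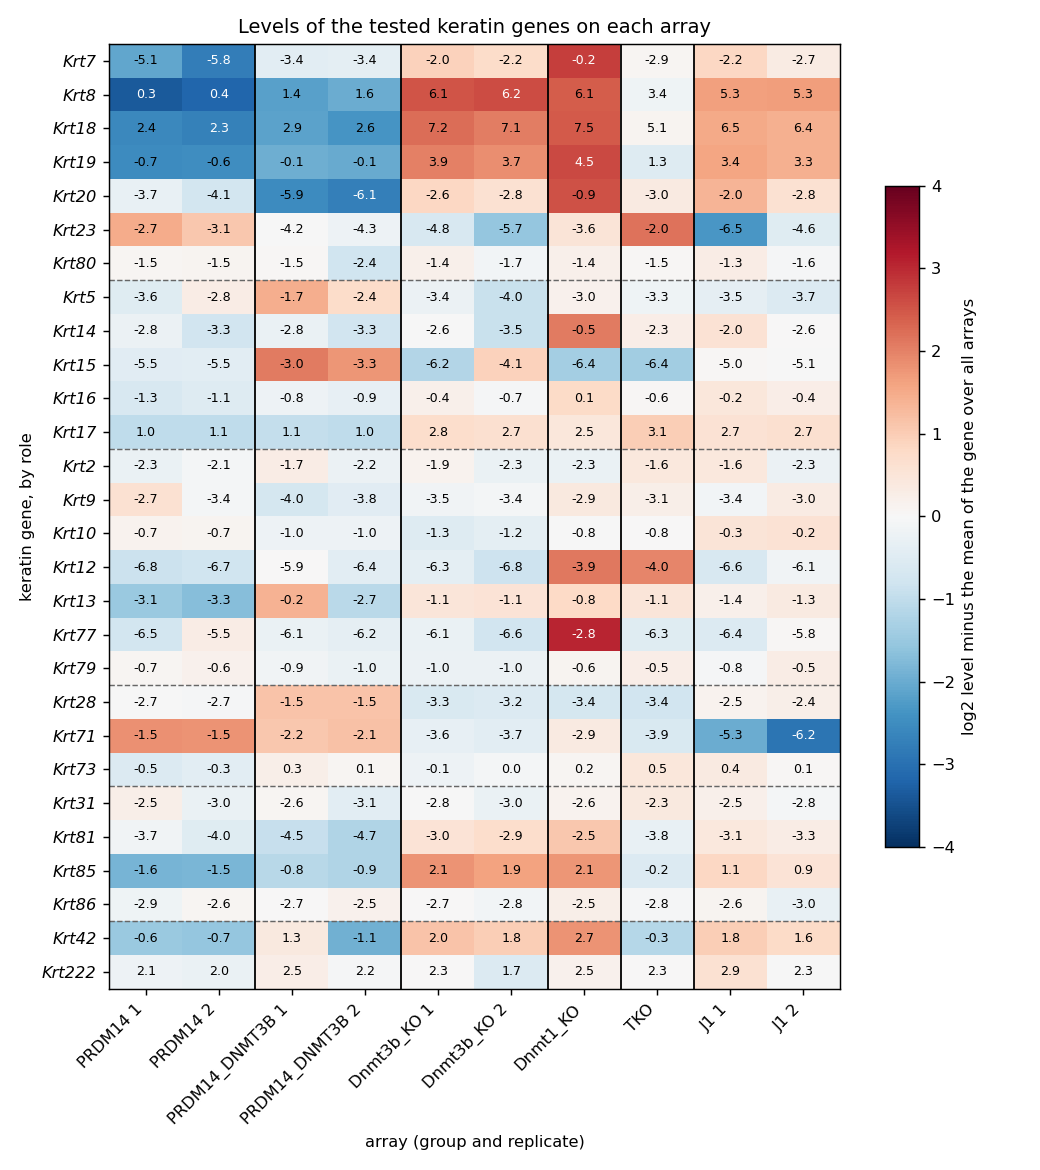
Log2 level of each of the 28 tested keratins (rows, grouped by role) on each of the 10 arrays (columns). Printed numbers are levels, and colours give the level minus that gene's mean over all arrays. Krt8, Krt18 and Krt19 are blue in PRDM14 and PRDM14_DNMT3B and red in Dnmt3b_KO, Dnmt1_KO and J1.

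Promoter windows of 300 bases, 250 before to 50 after the start of transcription, were available for 33 of the 47 members from RefSeq (build GRCm38.p6). They are shown because the lines differ in DNA methyltransferases, which act on CG dinucleotides, given in capitals. Shown are the adjacent partners Krt8 and Krt18, Krt7 and the hair keratin Krt71, each with its own response below. Krt8 (chr15:102004293-102004592, minus strand) held 6 CG and Krt18 (chr15:102027966-102028265, plus strand) held 17. Krt7 (chr15:101412153-101412452, plus strand) held 21 and Krt71 (chr15:101743048-101743347, minus strand) held 4.
Krt8: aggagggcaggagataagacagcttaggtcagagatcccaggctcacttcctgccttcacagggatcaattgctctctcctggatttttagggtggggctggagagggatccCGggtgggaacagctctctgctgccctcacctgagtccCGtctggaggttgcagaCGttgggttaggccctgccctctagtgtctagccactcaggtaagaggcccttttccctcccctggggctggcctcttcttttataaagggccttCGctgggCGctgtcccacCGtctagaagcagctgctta
Krt18: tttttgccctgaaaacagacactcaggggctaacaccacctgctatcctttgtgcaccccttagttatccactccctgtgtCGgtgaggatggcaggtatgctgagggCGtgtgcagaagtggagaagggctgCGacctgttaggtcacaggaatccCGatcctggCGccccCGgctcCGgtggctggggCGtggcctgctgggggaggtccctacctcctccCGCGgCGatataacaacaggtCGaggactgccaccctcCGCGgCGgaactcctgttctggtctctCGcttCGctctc
Krt7: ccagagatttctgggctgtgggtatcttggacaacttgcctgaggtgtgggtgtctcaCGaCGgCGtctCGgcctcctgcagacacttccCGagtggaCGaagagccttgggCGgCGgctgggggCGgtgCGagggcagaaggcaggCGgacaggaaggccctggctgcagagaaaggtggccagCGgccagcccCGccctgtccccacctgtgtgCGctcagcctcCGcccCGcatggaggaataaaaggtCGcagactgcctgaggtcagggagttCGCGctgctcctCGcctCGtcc
Krt71: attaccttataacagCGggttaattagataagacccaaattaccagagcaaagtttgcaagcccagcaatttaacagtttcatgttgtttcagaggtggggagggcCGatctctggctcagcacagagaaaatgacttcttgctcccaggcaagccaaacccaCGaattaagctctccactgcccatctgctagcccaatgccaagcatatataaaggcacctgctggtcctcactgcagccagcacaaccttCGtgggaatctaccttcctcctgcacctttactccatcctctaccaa
Over the 34 keratin windows (1 gene had 2) the median was 5 CG with a range of 2 to 21, against a median of 7 and quartiles of 3 and 20 over 32851 windows of all genes. The letters TATAAA, on either strand, were found in 17 of the 34 keratin windows, or 50.0%, against 13.6% of all windows. Krt8 and Krt71 held them and Krt18 and Krt7 did not. No methylation was measured here.

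In the PRDM14 line, labelled as expressing Prdm14 although its probe read low, 5 of the 7 keratins of simple epithelium fell against J1, most of all Krt8, Krt18 and Krt19. Krt8 had levels of 0.28 and 0.44 in PRDM14, against 5.27 and 5.29 in J1. Krt18 had 2.44 and 2.31 in PRDM14, against 6.53 and 6.41 in J1. Krt19, the small type I keratin of simple ducts and early epithelia, had -0.66 and -0.63 in PRDM14, against 3.45 and 3.28 in J1. The gap was many times the distance between replicates. In none of these did the groups overlap, but with 2 arrays a group this adds little. The share of all features without overlap was not counted. Krt8 was 30.3-fold lower (log2 difference -4.92, SE 0.11, adjusted p = 1.74e-05, limma), Krt18 was 17.0-fold lower (-4.09, SE 0.12, adjusted p = 2.55e-05) and Krt19 was 16.1-fold lower (-4.01, SE 0.10, adjusted p = 1.90e-05). A second Krt8 probe read -0.90 and -1.03 in PRDM14, against 3.74 and 3.68 in J1. These 3 calls held in all 16 alternatives, with Krt8 differences of -5.00 to -4.55.

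Other simple-epithelium keratins did not all follow. Krt7, the type II partner used in ducts and bladder, had -5.05 and -5.75 in PRDM14, not well above background there, against -2.16 and -2.65 in J1. Because its low values are only limits, its fold is given as an approximate lower bound. It sets the J1 mean against the lowest signals that still count as above background on the PRDM14 arrays. Every fold below given as at least a value was set in this way, on the side not above background. Such bounds hold for this scale only, and over the 15 alternatives the Krt7 log2 difference ran from -3.35 to -0.76. Krt7 was at least 4.53-fold lower (adjusted p = 0.000546). Krt20, the keratin of intestinal and urothelial surface cells, had -3.69 and -4.14 in PRDM14, against -2.05 and -2.81 in J1 (2.81-fold lower, adjusted p = 0.00921, but 0.0567 without PRDM14 replicate 2). Krt80 did not pass, with -1.52 and -1.48 in PRDM14 inside the J1 values of -1.29 and -1.64. Krt23, a type I keratin of simple epithelia, went the other way, with -2.65 and -3.06 in PRDM14, against -6.46 and -4.61 in J1, where it was not well above background on either array. Krt23 was at least 2.55-fold higher (adjusted p = 0.0194), a call lost without either PRDM14 array (0.0999 without replicate 1 and 0.0683 without replicate 2) and with slide as a random block (0.0507).

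Outside that class, Krt17, induced in wounded and embryonic epidermis, had 1.04 and 1.07 in PRDM14, against 2.65 and 2.72 in J1 (3.11-fold lower, adjusted p = 7.66e-05). Its frequent companion Krt16 had -1.27 and -1.15 in PRDM14, against -0.18 and -0.36 in J1 (1.91-fold lower, adjusted p = 0.00255). The basal keratins Krt5, Krt14 and Krt15 did not pass. Krt71, a type II keratin of the inner root sheath of hair, was the other gene that rose. It had -1.45 and -1.5 in PRDM14, against -5.29 and -6.21 in J1, where it was not well above background, and was at least 6.65-fold higher (adjusted p = 0.000197). Krt42, named Krt42 in the files and listed in RefSeq with the synonym ecat6, for ES cell associated transcript, had -0.62 and -0.70 in PRDM14, against 1.85 and 1.63 in J1. Its 5.30-fold lower level passed narrowly (adjusted p = 0.0388). It did not pass when any 1 of the J1 or PRDM14 arrays was left out (adjusted p from 0.108 to 0.142), nor without either Dnmt3b_KO array (0.0654 and 0.0643), with no filter on dim probes (0.0653) or with slide as a random block (0.0572).

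Over the 28 tested keratins, 2 rose, 12 fell and 14 did not pass in PRDM14 against J1, so 50% passed, against 39.8% of all 23626 features (21.1% higher and 18.7% lower). The median keratin difference was -0.49 and that of all features -0.03. By class, 1 rose and 5 fell of the 7 simple-epithelium keratins, 0 rose and 2 fell of the 5 basal or wound-induced ones, and 0 rose and 1 fell of the 7 of differentiated layers. The smaller falls were those of Krt73, Krt81 and Krt10, 1.61-, 1.58- and 1.35-fold. Each of these 3 calls was lost in 1 to 3 alternatives (adjusted p from 0.0515 to 0.718), and Krt10 differed by -0.11 when its probes were averaged. Fewer keratins passed without PRDM14 replicate 2, where fewer of all features passed too. The count was 9 when only probes above background on all arrays were tested. With that filter 19 keratins were tested, and 8500 of all 18199 features passed, a share close to that of the keratins. Each PRDM14 array lay on a slide of its own, so slide and line cannot be told apart. Fewer cells of a type cannot be told apart from less RNA per cell in any of these bulk samples.

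**Figure D2:**
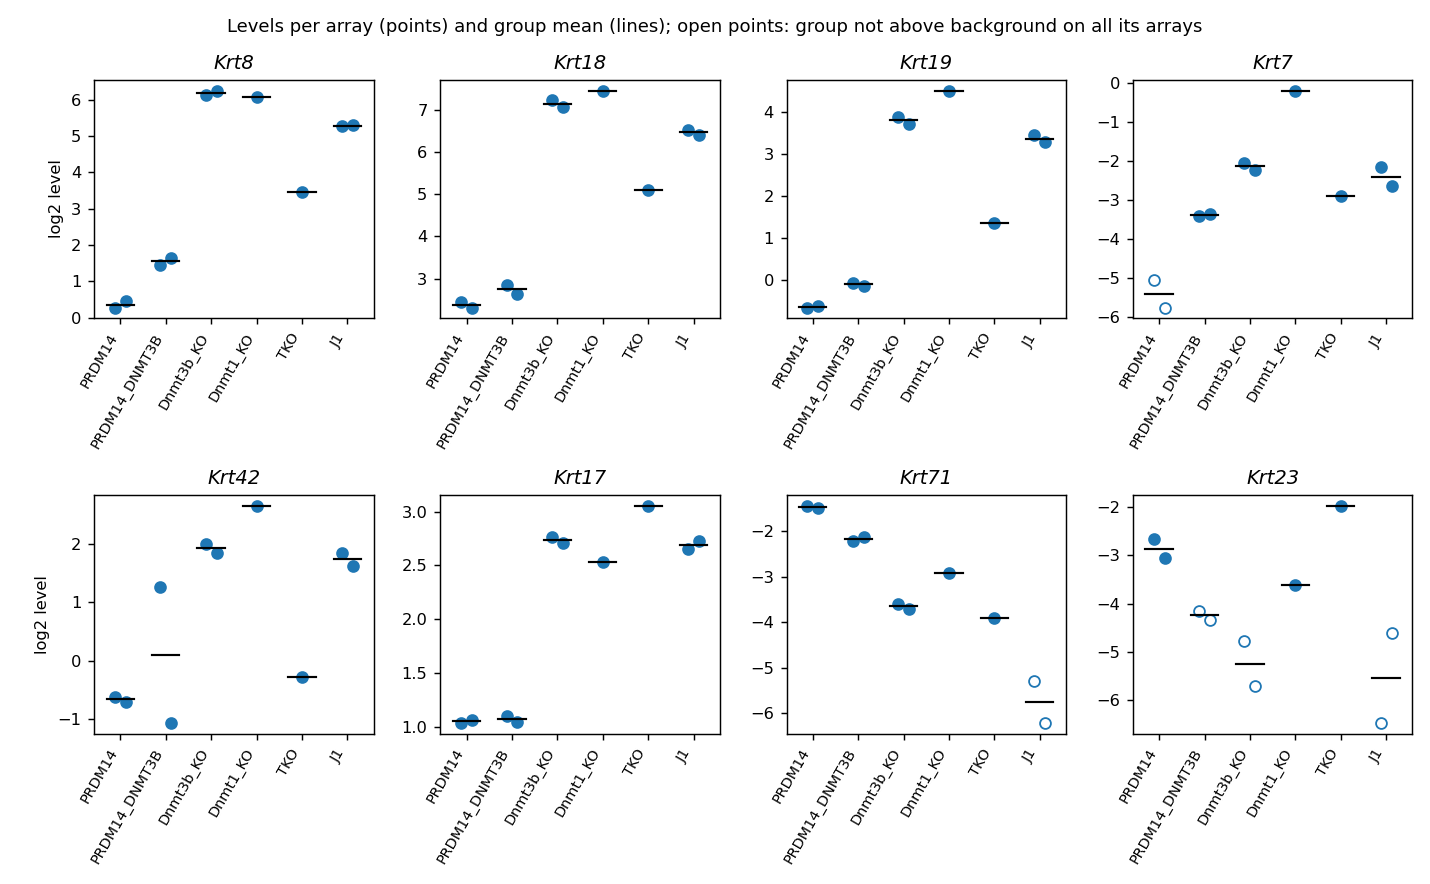
Log2 level of 8 keratins per array (points) with the group mean (lines), groups along the horizontal axis. Open points mark groups whose arrays were not all well above background. In Krt8, Krt18 and Krt19 both PRDM14 groups lie below TKO and TKO below Dnmt3b_KO, Dnmt1_KO and J1, while Krt71 has its lowest values in J1.

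Krt85, a keratin of the hair cortex, moved like Krt8 by the probe kept for it. That probe read -1.56 and -1.51 in PRDM14, against 1.13 and 0.87 in J1 (5.82-fold lower, adjusted p = 7.91e-05). A second Krt85 probe read -1.59 and -1.68 in PRDM14, against -1.06 and -1.35 in J1, and stayed between -1.68 and -1.06 on all 10 arrays. Another did not exceed background on any array. The chosen probe has no genome position in the files. Whether this probe also takes up RNA of other keratins was not tested, and Krt85 is reported as the reading of this probe.

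Genes that build or regulate keratin networks were examined beside the keratins. In PRDM14 against J1, 21.1% of all features passed as higher and 18.7% as lower, and each list is to be read beside these shares. Of 16 other markers of simple epithelium, 2 rose and 12 fell in PRDM14 against J1 (median -1.30). Their log2 sum, the log2 of the added levels, was 7.02 to 7.10 in PRDM14, against 7.05 to 7.09 in J1. Such sums, here and below, are set mostly by the brightest probes and do not measure the amount of a cell type. Anxa3, an annexin, was 17.1-fold lower (adjusted p = 1.51e-05) and Lgals3, galectin 3, 2.37-fold higher (adjusted p = 0.000213). Of 13 tested desmosome and plakin genes, which anchor keratin filaments, 2 rose and 7 fell (median -0.31). Among these, Dsp (desmoplakin) was 6.08-fold lower (adjusted p = 2.76e-05) and the desmosomal cadherin Dsc2 at least 4.61-fold lower (adjusted p = 0.000321). Of 17 tested transcription factors linked to keratin genes, 5 rose and 9 fell (median -0.40), with Grhl2, a regulator of epithelial genes, 6.57-fold lower (adjusted p = 3.53e-05) and Trp63, the p63 factor of basal epidermis, 4.30-fold higher (adjusted p = 0.000129). Of 16 other intermediate filament genes and lamins 5 rose and 5 fell (median 0.10), with Nes (nestin) 5.0-fold lower (adjusted p = 0.000111) and Synm (synemin) at least 10.4-fold higher (adjusted p = 0.00266). Among markers of other cell types, 3 rose and 7 fell of 12 for trophoblast and 5 and 5 of 18 for primitive endoderm. For epidermis 0 rose and 4 fell of 7, and for mesenchyme 2 and 9 of 13. The log2 sum of the 14 trophoblast markers on the array was 5.91 to 6.28 in PRDM14, against 5.77 to 5.82 in J1. That of the 18 primitive endoderm markers was 8.29 to 8.39 in PRDM14, against 7.93 to 8.05 in J1. The part of other cells in the keratin differences was not tested.

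In PRDM14_DNMT3B, labelled as carrying Prdm14 and Dnmt3b1 although both probes read lower there than in J1, Krt8, Krt18 and Krt19 were also low. Krt8 had 1.44 and 1.65 in PRDM14_DNMT3B, against 5.27 and 5.29 in J1 (13.3-fold lower, adjusted p = 2.87e-05). Krt18 had 2.86 and 2.64 there, against 6.53 and 6.41 in J1 (13.2-fold lower, adjusted p = 3.55e-05), and Krt19 had -0.07 and -0.15, against 3.45 and 3.28 in J1 (11.1-fold lower, adjusted p = 2.87e-05). The groups did not overlap in any of the 3, but with 2 arrays a group this adds little. The share of all features without overlap was not counted here either. Within slides, Krt8 differed by -3.83 on slide 1 and -3.64 on slide 2, Krt18 by -3.67 and -3.78, and Krt19 by -3.52 and -3.42. Krt17 was 3.06-fold lower, with 1.10 and 1.05 in PRDM14_DNMT3B (adjusted p = 8.44e-05), and Krt7 1.97-fold lower, with -3.40 and -3.36 (adjusted p = 0.0337). The Krt7 call was lost in 6 of 16 alternatives (adjusted p from 0.0557 to 0.138), 5 of them with 1 array left out. Krt20 had -5.93 and -6.15 in PRDM14_DNMT3B, not well above background, and was at least 5.18-fold lower than J1 (adjusted p = 0.000355).

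Among the keratins of stratified epithelium and hair, some were higher in PRDM14_DNMT3B than in J1 and others lower. Of those tested, 1 rose and 2 fell of 5 basal or wound-induced, and 0 and 1 of 7 of differentiated layers. Of the hair root sheath 2 rose and 0 fell of 3, and of the hair shaft and tongue 0 and 2 of 4. Those that fell were Krt17, Krt16, Krt10, Krt81 and the Krt85 probe. The Krt16 and Krt10 calls were lost in 2 and 1 of 17 alternatives. Krt71 had -2.22 and -2.13 in PRDM14_DNMT3B and was at least 4.10-fold higher than J1 (adjusted p = 0.000366). Krt28, a type I keratin of the inner root sheath, had -1.53 and -1.54 in PRDM14_DNMT3B, against -2.53 and -2.43 in J1 (1.93-fold higher, adjusted p = 0.000500), and these were its highest values on any array. Krt5, the type II keratin of basal cells, had -1.69 and -2.40 in PRDM14_DNMT3B, against -3.50 and -3.70 in J1 (2.94-fold higher, adjusted p = 0.0216). The Krt5 call was lost without either J1 array (0.0629 and 0.0920) or without PRDM14_DNMT3B replicate 1 (0.0951). Krt15, a type I keratin of basal cells, had -2.99 and -3.30 in PRDM14_DNMT3B, against -5.01 and -5.07 in J1, and did not pass (log2 difference 1.89, SE 0.63, adjusted p = 0.0602). Over the 28, 3 rose, 10 fell and 15 did not pass, so 46.4% passed, against 39.3% of all features (19.6% higher and 19.7% lower). Of the 16 other markers of simple epithelium 1 rose and 11 fell in PRDM14_DNMT3B against J1 (median -1.12). Their log2 sum, set mostly by the brightest probes, was 7.33 to 7.39 in PRDM14_DNMT3B, against 7.05 to 7.09 in J1. Of markers of other cells, 0 rose and 8 fell of 12 for trophoblast, 6 and 3 of 18 for primitive endoderm, 1 and 5 of 13 for mesenchyme and 0 and 4 of 7 for epidermis. The log2 sum of the 18 primitive endoderm markers was 8.50 to 8.51 in PRDM14_DNMT3B, against 7.93 to 8.05 in J1, and its part in the keratin values was not tested.

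The PRDM14_DNMT3B replicates disagreed in 3 keratins of chromosome 11, each by the probe kept for it. Krt42 had 1.26 and -1.07, the first near the J1 values of 1.85 and 1.63 and the second below the PRDM14 values. Krt13, a type I keratin of the mouth and oesophagus, had -0.25 and -2.70, against -3.10 and -3.33 in PRDM14 and -1.44 and -1.26 in J1. Krt42 and Krt13 did not pass in PRDM14_DNMT3B against J1 (adjusted p = 0.119 and 0.920), and this spread entered their error in every comparison. A second, dimmer Krt13 probe, above background on 5 arrays, read -2.70 and -2.49 in PRDM14_DNMT3B, so its replicates did not disagree. That probe read -4.05 and -4.40 in PRDM14 and -4.65 and -2.85 in J1. Krt26, a type I keratin of the inner root sheath, had 0.73 and -6.34 in PRDM14_DNMT3B and lay between -6.76 and -6.09 on the other 8 arrays. It was above background on that 1 array alone and was not tested.

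Set directly against PRDM14, the line with Dnmt3b1 in its label had somewhat more of several simple-epithelium keratins. Krt8 was 2.28-fold higher in PRDM14_DNMT3B (log2 difference 1.19, SE 0.11, adjusted p = 0.00215), with 1.44 and 1.65, against 0.28 and 0.44 in PRDM14. Krt19 was 1.45-fold higher (adjusted p = 0.0190, but 0.0545 to 0.102 in 5 of 16 alternatives), and Krt18 differed by 0.37 without passing. Krt7 was at least 2.30-fold higher (adjusted p = 0.00623), with -3.40 and -3.36 in PRDM14_DNMT3B, against -5.05 and -5.75 in PRDM14. Krt28 was 2.25-fold higher, with -1.53 and -1.54 in PRDM14_DNMT3B, against -2.68 and -2.72 in PRDM14 (adjusted p = 0.00102). Krt20 moved the opposite way, at least 1.84-fold lower, with -5.93 and -6.15 in PRDM14_DNMT3B, against -3.69 and -4.14 in PRDM14 (adjusted p = 0.00634). With normexp background correction the Krt20 difference was -0.29 and did not pass (adjusted p = 0.214).

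Of the 28 keratins 6 rose, 3 fell and 19 did not pass in PRDM14_DNMT3B against PRDM14, or 32.1% passed, against 20.9% of all features (9.86% higher and 11.1% lower). The keratin median was 0.25 and that of all features -0.03. Of the desmosome and plakin genes 7 rose and 1 fell of 13, with Perp, a desmosomal membrane protein, 3.24-fold higher (adjusted p = 0.000649). Fewer keratins passed without PRDM14 replicate 1 or without PRDM14_DNMT3B replicate 1, and in both fits fewer of all features passed too. The 2 lines lay on different slides.

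**Figure D3:**
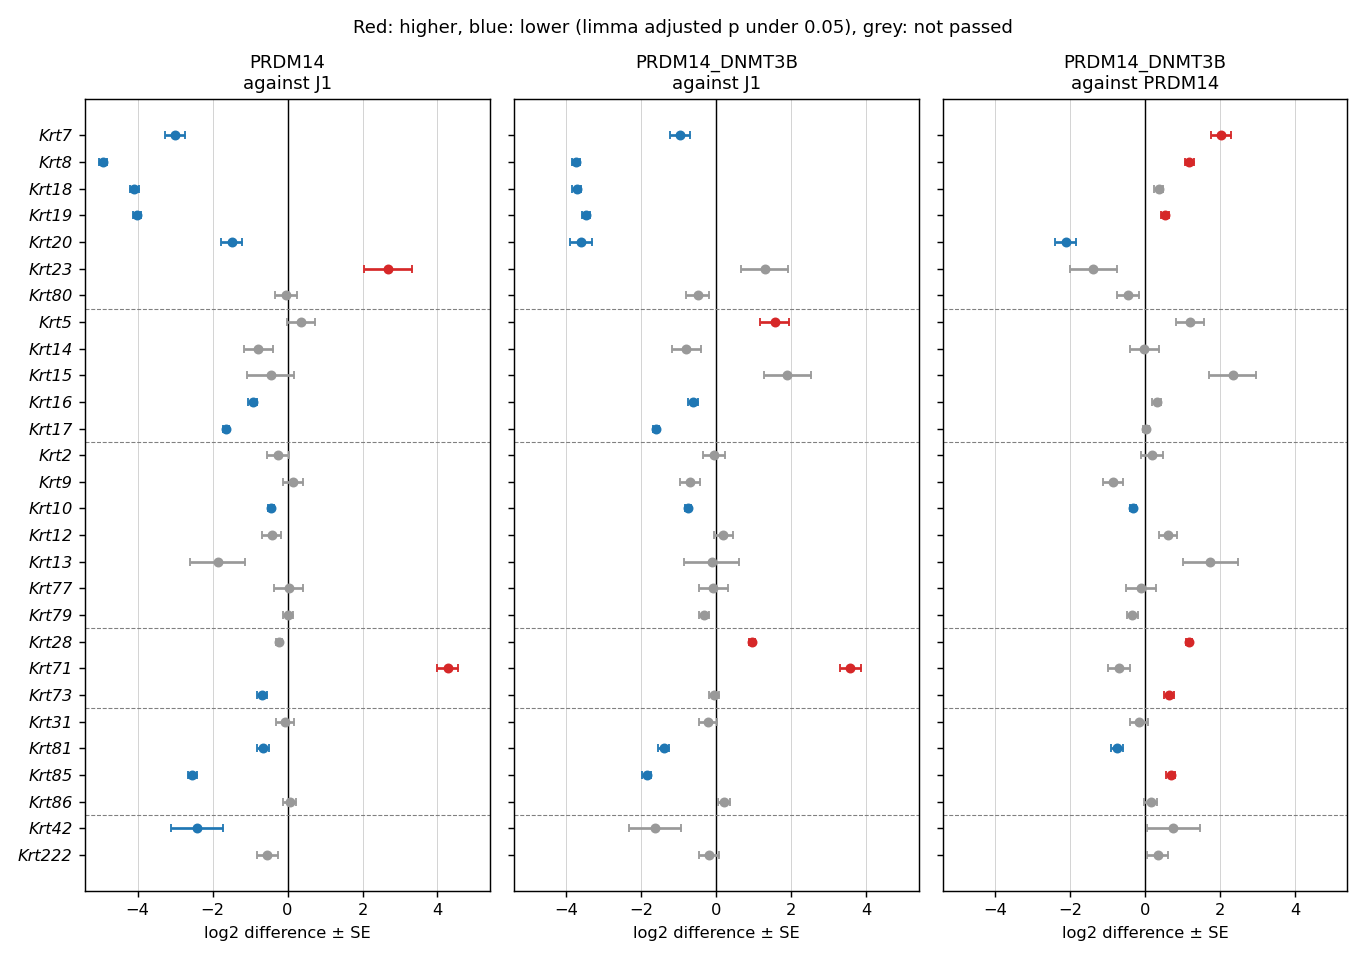
Log2 difference (points) with its SE (bars) of the 28 tested keratins, by role, in PRDM14 and PRDM14_DNMT3B against J1 and in PRDM14_DNMT3B against PRDM14. Red passed as higher, blue as lower and grey did not pass. Krt8, Krt18 and Krt19 lie between -4.92 and -3.47 in both comparisons with J1, and Krt71 at 4.27 and 3.58.

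In Dnmt3b_KO the leading simple-epithelium keratins were slightly higher than in J1. Krt8 had 6.14 and 6.25 in Dnmt3b_KO, against 5.27 and 5.29 in J1 (1.88-fold higher, adjusted p = 0.00457). Krt18 had 7.24 and 7.06 in Dnmt3b_KO, against 6.53 and 6.41 in J1 (1.61-fold higher, adjusted p = 0.0148). Krt19 had 3.89 and 3.72 in Dnmt3b_KO, against 3.45 and 3.28 in J1 (1.36-fold higher, adjusted p = 0.0340). The Krt18 call was lost without J1 replicate 2 (0.0699) and without Dnmt3b_KO replicate 1 (0.0781), and that of Krt19 in 8 of 17 alternatives (0.0614 to 0.154). None of the 3 overlapped, but with 2 arrays a group this adds little, and the share of all features without overlap was not counted. Krt8 differed by 0.87 on slide 1 and 0.96 on slide 2. Krt7 did not pass, with -2.05 and -2.24 in Dnmt3b_KO, against -2.16 and -2.65 in J1.

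Krt71 was at least 1.47-fold higher in Dnmt3b_KO, with -3.61 and -3.71 (adjusted p = 0.00632, but 0.326 with normexp background correction). Krt28 was 1.70-fold lower, with -3.29 and -3.21 in Dnmt3b_KO, against -2.53 and -2.43 in J1 (adjusted p = 0.00322). Krt10, the type I keratin of upper epidermal layers, was 2.01-fold lower, with -1.30 and -1.18 in Dnmt3b_KO, against -0.27 and -0.21 in J1 (adjusted p = 0.00161). A second, dimmer Krt10 probe read -3.53 and -3.87 in Dnmt3b_KO, against -3.95 and -4.95 in J1, and the mean of both probes did not pass (log2 difference -0.13, adjusted p = 0.714). The Krt85 probe read 2.11 and 1.92 in Dnmt3b_KO (2.02-fold higher, adjusted p = 0.00473), and the mean of the Krt85 probes did not pass (adjusted p = 0.0688). Of the 28 keratins 5 rose, 2 fell and 21 did not pass, so 25% passed, against 21.1% of all features, a share near the background (10.9% higher and 10.2% lower). The keratin median was -0.12 and that of all features -0.10. Of the 16 other markers of simple epithelium 3 rose and 0 fell. Of markers of other cells, 6 rose and 0 fell of 13 for mesenchyme, 5 and 1 of 18 for primitive endoderm and 1 and 3 of 12 for trophoblast. The log2 sum of the 14 mesenchyme markers was 6.76 to 6.79 in Dnmt3b_KO, against 5.84 to 5.91 in J1, and its part in the keratin values was not tested.

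The single Dnmt1_KO array had the highest values of several simple-epithelium keratins. Krt18 had 7.46 in Dnmt1_KO, against 6.53 and 6.41 in J1 (1.99-fold higher, adjusted p = 0.00734), and Krt19 had 4.51, against 3.45 and 3.28 in J1 (2.22-fold higher, adjusted p = 0.00272). Krt8 had 6.06, above both J1 arrays and below both Dnmt3b_KO arrays (1.72-fold higher than J1, adjusted p = 0.0114). Krt7 had -0.20 in Dnmt1_KO, against -2.16 and -2.65 in J1, the highest of any array (4.61-fold higher, adjusted p = 0.00717). Krt20 had -0.87, against -2.05 and -2.81 in J1 (2.95-fold higher, adjusted p = 0.0243, but 0.0510 with no filter on dim probes). Within slide 1 the differences were 0.79 for Krt8, 0.93 for Krt18, 1.06 for Krt19, 1.96 for Krt7 and 1.18 for Krt20. Dnmt1_KO and J1 were read in different scanner passes on that slide, which cannot be told apart from the line.

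Some keratins of stratified epithelia rose above background in Dnmt1_KO. Krt77, a type II keratin of epidermis, had -2.77 in Dnmt1_KO and between -6.57 and -5.51 on the other 9 arrays, where it was not above background. It was at least 2.72-fold higher than J1 (adjusted p = 0.00665), and just missed the threshold with normexp background correction. Krt12, the keratin of corneal epithelium, had -3.85 in Dnmt1_KO, against -6.59 and -6.09 in J1, and was at least 1.28-fold higher (adjusted p = 0.00370, but 0.367 with normexp). A second Krt12 probe was not above background on any array. Krt77 entered the test through Dnmt1_KO alone, and Krt12 through Dnmt1_KO and TKO, each a single array. Their p-values thus rest on the values that selected them, and both are counted among the keratins that rose. Krt14, the basal partner of Krt5, had -0.48 in Dnmt1_KO, against -1.99 and -2.55 in J1 (3.46-fold higher, adjusted p = 0.0389). The Krt14 call was lost when any 1 of the J1, PRDM14 or PRDM14_DNMT3B arrays was left out (adjusted p from 0.0557 to 0.120). Krt71 had -2.93 and was at least 2.43-fold higher (adjusted p = 0.00389). Krt28 fell 1.85-fold and Krt10 fell 1.5-fold, but the mean of the Krt10 probes turned the other way without passing (log2 difference 0.18, adjusted p = 0.651).

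Of the 28 keratins 11 rose, 2 fell and 15 did not pass in Dnmt1_KO against J1, or 46.4% passed, against 28.2% of all features (13.1% higher and 15.1% lower). The keratin median was 0.57 and that of all features -0.15. The tested genes of chromosome 11 other than keratins had a median of 0.03, those of chromosome 15 of -0.17 and those of the other autosomes of -0.16. The count was 7 of 19 when only probes above background on all arrays were tested. With that filter 6329 of all 18199 features passed, a share close to that of the keratins. Of 16 other intermediate filament genes 8 rose and 3 fell (median 0.44), with Nefm, a neurofilament, at least 104-fold higher (adjusted p = 0.000121). Of the 16 markers of simple epithelium 6 rose and 1 fell (median 0.36), of 13 desmosome and plakin genes 1 rose and 2 fell (median 0.14), and of 12 pluripotency markers 0 rose and 8 fell (median -0.68). The log2 sum of the 18 primitive endoderm markers was 8.62 in Dnmt1_KO, against 7.93 to 8.05 in J1, and 7 of them rose and 2 fell. Whether such cells carry the keratin signal was not tested.

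The TKO array, which lacks all 3 methyltransferase genes, had lower Krt8, Krt18 and Krt19 than J1. Of the 7 simple-epithelium keratins 1 rose, 3 fell and 3 did not pass. Krt8 had 3.45 in TKO, against 5.27 and 5.29 in J1 (3.56-fold lower, adjusted p = 0.000792). Krt18 had 5.10 in TKO, against 6.53 and 6.41 in J1 (2.58-fold lower, adjusted p = 0.00235), and Krt19 had 1.35, against 3.45 and 3.28 in J1 (4.05-fold lower, adjusted p = 0.000516). All 3 lay outside the J1 values and above both PRDM14 lines. The second Krt8 probe read 1.89 in TKO, against 3.74 and 3.68 in J1. Krt7 had -2.91, just under the J1 values, and did not pass. Within slide 1 the differences were -1.82 for Krt8, -1.42 for Krt18 and -2.10 for Krt19, and TKO too was read in another scanner pass than J1.

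Krt23 was the keratin with the largest rise in TKO, at -1.98, against -6.46 and -4.61 in J1 (at least 4.70-fold higher, adjusted p = 0.0210, but 0.0727 with slide as a block). Krt12 had -4.0 in TKO, the only other array than Dnmt1_KO where it was above background (at least 1.16-fold higher than J1, adjusted p = 0.00402, but 0.352 with normexp). Krt71 had -3.90 (at least 1.24-fold higher, adjusted p = 0.0134, but 0.0501 with slide as a block and 0.323 with normexp). Krt17 had 3.05 in TKO, against 2.65 and 2.72 in J1, a 1.29-fold rise (adjusted p = 0.0389) lost in 10 of 17 alternatives (0.0553 to 0.120). Krt28 fell 1.95-fold and Krt10 1.47-fold, the second lost with the mean of the Krt10 probes (adjusted p = 0.389). Krt12, Krt23 and Krt71 entered the test only through groups in which they were high, TKO among them. Their p-values here thus rest on values that also selected them, and they are counted among the keratins that rose. By the probes kept, Krt71 passed as higher and Krt10 as lower in all 5 comparisons with J1. These comparisons share the same J1 arrays and are not independent. For these genes a trait of J1 cannot be told apart from a change in each other line. Of the 28 keratins 4 rose, 6 fell and 18 did not pass, or 35.7% passed, against 28.5% of all features (13.8% higher and 14.7% lower).

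Other lists of the network moved in different directions in TKO. Of 13 desmosome and plakin genes 0 rose and 6 fell (median -0.42), among them Perp, 4.30-fold lower (adjusted p = 0.000300), and Dsc2, at least 3.63-fold lower (adjusted p = 0.00645). Of 16 other markers of simple epithelium 4 rose and 3 fell, with the tight-junction gene Cldn3 6.64-fold higher (adjusted p = 0.000786) and Anxa3 5.54-fold lower (adjusted p = 0.000236). Of 18 primitive endoderm markers 14 rose and 0 fell (median 1.98), among them Cubn, the endocytic receptor cubilin, 35.9-fold higher (adjusted p = 0.000380). All 18 were above background in TKO, against 10 to 13 in J1, and their log2 sum was 8.28 in TKO, against 7.93 to 8.05 in J1. Of 12 trophoblast markers 0 rose and 8 fell. The part of these cells in the keratin values was not tested.

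**Figure D4:**
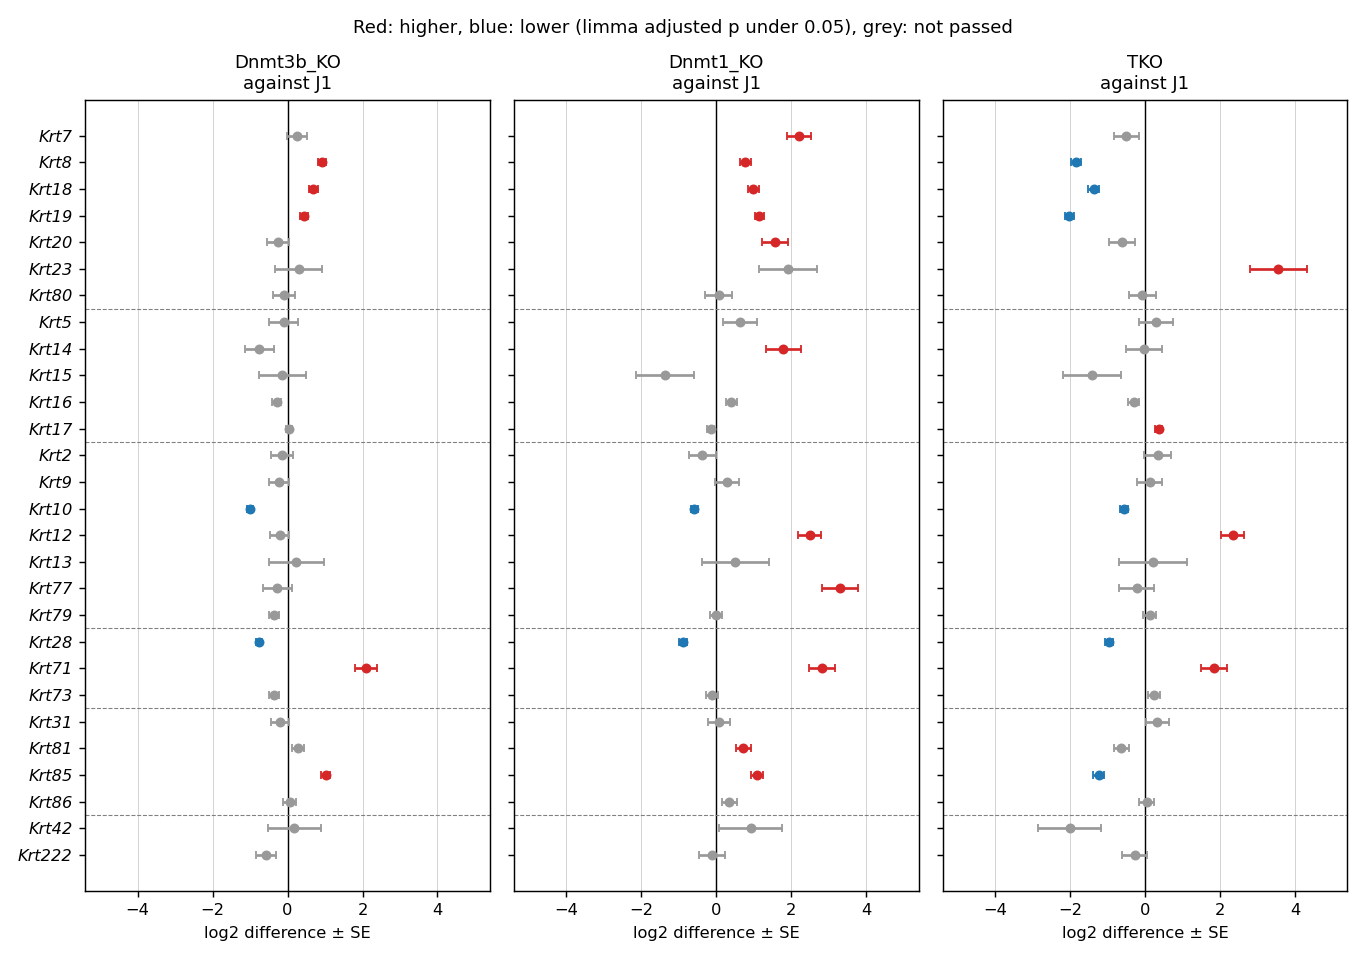
Log2 difference (points) with its SE (bars) of the 28 tested keratins, by role, in Dnmt3b_KO, Dnmt1_KO and TKO against J1. Red passed as higher, blue as lower and grey did not pass. Krt8, Krt18 and Krt19 are on the higher side in Dnmt3b_KO and Dnmt1_KO and on the lower side, at -1.83, -1.37 and -2.02, in TKO.

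The knockout lines were also set against each other, comparisons added after the values had been seen. Krt8 was 6.11-fold lower in TKO than in Dnmt1_KO (adjusted p = 0.00205) and 6.70-fold lower than in Dnmt3b_KO (adjusted p = 0.000365). Krt18 was 5.13-fold lower than in Dnmt1_KO (adjusted p = 0.00299) and 4.15-fold lower than in Dnmt3b_KO (adjusted p = 0.000916), and Krt19 was 8.98-fold and 5.49-fold lower (adjusted p = 0.00122 and 0.000397). Krt7, at -2.91 in TKO, against -0.20 in Dnmt1_KO, was 6.52-fold lower (adjusted p = 0.0141), and Krt77 at least 2.77-fold lower (adjusted p = 0.0194, but 0.103 with normexp). Against Dnmt1_KO 1 keratin rose and 8 fell of 28, or 32.1%, against 8.82% of all features (4.14% higher and 4.68% lower). Against Dnmt3b_KO 3 rose and 5 fell, or 28.6%, against 18.1% of all features (9.47% higher and 8.59% lower). The comparison of TKO with Dnmt1_KO is of 1 array with 1 array, on the same slide. Krt77 entered the test through the Dnmt1_KO array alone, so its p-value here rests on the value that selected it.

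Against Dnmt3b_KO, whose Dnmt3b is deleted, both lines labelled with Prdm14 were again lower in Krt8, Krt18 and Krt19. The 2 sets of comparisons share the PRDM14 and PRDM14_DNMT3B arrays and so are not independent. Krt8 was 57.0-fold lower in PRDM14 than in Dnmt3b_KO (adjusted p = 9.25e-06) and 25.1-fold lower in PRDM14_DNMT3B (adjusted p = 1.54e-05). Krt18 was 27.4-fold and 21.2-fold lower (adjusted p = 1.68e-05 and 2.36e-05), and Krt19 21.8-fold and 15.1-fold lower (adjusted p = 1.28e-05 and 2.04e-05). Krt71 was 4.53-fold higher in PRDM14 (adjusted p = 0.00244) and 2.80-fold higher in PRDM14_DNMT3B (adjusted p = 0.0117), and here all arrays of all 3 groups were above background. The second Krt71 call was 0.0578 without PRDM14_DNMT3B replicate 2 and 0.0579 without Dnmt3b_KO replicate 2. In PRDM14 against Dnmt3b_KO 4 keratins rose and 10 fell of 28, or 50%, against 37.5% of all features (21.7% higher and 15.7% lower). In PRDM14_DNMT3B against Dnmt3b_KO 3 rose and 8 fell, or 39.3%, against 30.9% of all features (16.4% higher and 14.5% lower).

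Among tested keratins that passed in none of the 10 comparisons, most had narrow ranges over all 10 arrays. Krt86, of the hair cortex, lay between -3.00 and -2.46, Krt31, of the hair shaft, between -3.13 and -2.33, and Krt79, of the hair canal, between -1.03 and -0.45. Krt2, of upper epidermis, lay between -2.29 and -1.58, and Krt222, a keratin-like gene, between 1.71 and 2.88. Krt9, of palm and sole skin, lay between -4.04 and -2.72, and was above background on 9 arrays. Krt13, Krt15 and Krt80, described above, passed in none either.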

How the data were processed

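RNA of 10 ES cell samples in 6 groups was hybridised to 1-colour Agilent arrays. The authors deposited one scanner table per array from Agilent Feature Extraction 10.7.3.1, per the file headers, whose processed signal intensity was used here, and a log2 value table of the same arrays, deposited by the authors and made with limma per the submitters' processing notes, which correlated with the values used here at 0.999 or more and served as an alternative. Control spots and outlier flags were left out, spots of a probe were averaged, and each array's 75th percentile was subtracted on the log2 scale. For each gene name the probe with the highest mean was kept, and features were tested if some group had them well above background on all of its arrays. limma 3.58.1 (R 4.3.3) fitted 6 group means to 10 arrays, leaving 4 residual degrees of freedom, with Benjamini-Hochberg adjustment, after the fit was checked on simulated data. The number of arrays limits the precision.

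The 8 comparisons set each line against J1, PRDM14_DNMT3B against PRDM14 and both Prdm14 lines against Dnmt3b_KO, and 2 with TKO were added after seeing the data. Members described array by array passed with a log2 difference of at least 1 in some comparison (17 genes). Of each other list, up to 2 rising and 2 falling genes were named per comparison. The members and lists were chosen with earlier results of these data known. Alternatives were quantile normalization, normexp (offset 50), other filters on dim probes, the deposited value table, the mean of a gene's probes, replicate and slide blocks and each array of a replicated group left out. Probe positions in the files are on mm9, and promoters on GRCm38.p6, and the builds were not mixed. Some items are not reported here.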

Additional observations from a re-analysis of the deposited data

How the results depend on the processing

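Most counts of changed keratins stayed within 1.5 times of the values given, and of all calls of keratins and named genes of other lists, those of Krt10 in 2 comparisons reversed and no other did. With the mean of its probes Krt10 differed by 0.18 in Dnmt1_KO against J1 and by -0.21 in TKO against Dnmt3b_KO, neither passing. Testing only probes above background on all arrays lowered the count to 9 in PRDM14 against J1, 7 in Dnmt1_KO against J1 and 7 in PRDM14_DNMT3B against Dnmt3b_KO. Only 19 keratins were then tested, and 8500, 6329 and 6563 of all 18199 features passed in the same order. The keratin shares were then close to those of all features. With no filter on dim probes the keratin count was 5 in PRDM14_DNMT3B against PRDM14, where more features entered the adjustment and 2984 of all 36145 passed. Leaving out 1 array at a time gave 9 to 15 in PRDM14, 11 to 14 in PRDM14_DNMT3B, 5 to 8 in Dnmt3b_KO, 11 to 13 in Dnmt1_KO and 9 to 10 in TKO against J1. It gave 4 to 9 in PRDM14_DNMT3B against PRDM14, 11 to 14 in PRDM14 against Dnmt3b_KO and 9 to 12 in PRDM14_DNMT3B against Dnmt3b_KO. The lowest values came without PRDM14 replicate 2 (9 in PRDM14 against J1) and without PRDM14 replicate 1 (4 in PRDM14_DNMT3B against PRDM14), where calls over all features fell too, to 6501 against 9403 and to 1911 against 4944. Same-numbered replicates deviated together, with correlations of 0.25 to 0.486, the higher ones (0.428 to 0.486) among PRDM14_DNMT3B, Dnmt3b_KO and J1, whose replicate 1 lay on slide 1 and replicate 2 on slide 2. The labels do not say that a number marks a shared batch, and here number and slide cannot be told apart. With replicate number as a block the counts were 15 for PRDM14, 14 for PRDM14_DNMT3B, 8 for Dnmt3b_KO, 13 for Dnmt1_KO and 12 for TKO against J1, 10 for PRDM14_DNMT3B against PRDM14, 13 for PRDM14 against Dnmt3b_KO and 12 for PRDM14_DNMT3B against Dnmt3b_KO. Calls over all features were more numerous with it too, at 11383, 10949, 7144, 8861 and 8216 against J1 in the same order. In the comparisons without J1, calls over all features with that block were 7021, 10790 and 9029, in the order given. Slide as a random block, chosen after seeing the data, gave a correlation of 0.459 and moved no count by more than 1.5 times. Normexp lost calls of Krt10, Krt12, Krt20, Krt28, Krt71, Krt77 and Krt81 in some comparisons.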
